A study of Rattus norvegicus with 244 samples.

Results

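The somatomotor cortex of the rat at 7 d and 14 d after a moderate spinal cord injury was compared with cortex taken at the same times after sham surgery. The samples were picked by their region, treatment and time, and 10 of the 84 samples of the series entered, on 30 of its 244 arrays. They are injured cortex at 7 d (3 samples) and 14 d (4 samples) and sham cortex at 7 d (2 samples) and 14 d (1 sample). Replicate 2 of injured cortex at 7 d and replicate 2 of sham cortex at 14 d carry the same labels but were left out, because the 5th percentile of their signal, 29.8 to 66.1 over their arrays, lay above the 7.99 to 18.9 of the 10 samples. The labels name neither strain, sex nor age, do not say how the injury or the sham surgery was done, and do not say whether samples were separate animals or pools. Naive cortex (4 samples), injured and sham cortex at 4 h and 24 h (12 samples) and at 28 d and 3 months (11 samples), and injured and sham raphe, a brainstem region, at 7 d and 14 d (12 samples) served only to set the cortex window beside them.

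The somatomotor cortex holds the layer 5 pyramidal neurons whose axons form the corticospinal tract. A spinal injury can cut or damage these axons far from their cell bodies, while the tissue sampled here was not itself injured. The weeks after such an injury are commonly studied for axon regrowth and sprouting and for reactions of microglia, the resident macrophages of the brain, and astrocytes around the affected cell bodies. The RNA of whole tissue was read by probe sets, each giving an intensity without a unit, on a set of 3 array types (A, B and C). In such bulk RNA a lower intensity may come from fewer cells of a type or from less RNA per cell, which cannot be told apart.

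The tissue label was checked first. Of 8 cortex markers, 7 were brighter in each of the 10 samples than in each raphe sample of the same times. Nrgn, which encodes the calmodulin-binding protein neurogranin of forebrain neurons, read 17525 to 33395 in the cortex samples and 277 to 557 in the raphe samples. The exception was Slc17a7, the vesicular glutamate transporter of cortical neurons, whose probe set read 8.77 to 23.8 in cortex and 3.30 to 27.7 in raphe and was too dim to test. Of the 7 brainstem markers on the arrays, 5 were dimmer in each cortex sample than in each raphe sample. Sncg, a synuclein of brainstem and sensory neurons, read 9.04 to 60.8 in cortex.

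Probe sets of dim signal were set aside, keeping those brighter than the 40th percentile of their array on at least 3 arrays, and 17107 were tested. Differences are given on the scale of log2(intensity + 32) as injured minus sham with their standard error, from limma with time as a block, and a probe set was called where the Benjamini-Hochberg adjusted p was under 0.05. The p-values measure the spread between these samples, which may be partly technical. Over the 2 times together, 3 probe sets were called, 0.0175 percent of those tested, 1 higher and 2 lower in injured cortex. At an unadjusted p under 0.05 there were 1157 probe sets (6.76 percent), 581 higher (3.4 percent) and 576 lower (3.37 percent). Injured and sham values did not overlap at 427 probe sets (2.5 percent), 198 higher (1.16 percent) and 229 lower (1.34 percent). The median difference over all probe sets tested was -0.01, and the median standard error 0.21.

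The 3 called probe sets are named here after their values were seen, and for 2 of them the annotation used here gives no gene. At rc_AA946227_at the deposited intensity was 115, 88.2 and 52.0 in the injured samples at 7 d, 64.9, 74.7, 61.3 and 64.9 in those at 14 d, 642 and 557 in the sham samples at 7 d and 301 in the sham sample at 14 d. Every injured sample lay below every sham sample, and the difference was -2.19 ± 0.21 (adjusted p = 0.00944 by limma). The naive samples read 110.3 to 229.9, below the sham samples and in part above the injured ones.

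At rc_AI177281_at the intensity was 98.0, 82.8 and 87.5 in the injured samples at 7 d, 91.0, 119, 172 and 104 in those at 14 d, 339.7 and 301 in the sham samples at 7 d and 470.2 in the sham sample at 14 d. The groups did not overlap here either, with a difference of -1.62 ± 0.16 (adjusted p = 0.0114 by limma) and naive values of 59.6 to 336. The third called probe set, rc_AI229826_at, is annotated to Tpgs1, which encodes a subunit of the tubulin polyglutamylase complex that adds glutamate chains to microtubules. It read 363, 343 and 288 in the injured samples at 7 d, 226, 206, 258 and 246 in those at 14 d, 134 and 91.2 in the sham samples at 7 d and 99.4 in the sham sample at 14 d.

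All 7 injured samples lay above all 3 sham samples at this Tpgs1 probe set, by 1.21 ± 0.15 (adjusted p = 0.0426 by limma). The brighter probe set of Tpgs1, rc_AA818808_at, showed no such difference. It read 916, 803 and 865 in the injured samples at 7 d, 927, 1038, 979.9 and 981 in those at 14 d, 894 and 936 in the sham samples at 7 d and 989.5 in the sham sample at 14 d, a difference of -0.06 ± 0.11. The 3 called probe sets were dim. In rc_AA946227_at and rc_AI177281_at no injured sample and all 3 sham samples exceeded the 40th percentile of their array, and at the Tpgs1 probe set 5 injured and no sham samples did. They entered the test only through the group in which they were high, so that a difference was built into their entry.

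Of the 27 alternative settings, 5 gave no value for rc_AA946227_at and rc_AI177281_at, which no longer entered the test with any 1 sham sample left out, with the 60th percentile filter or with sham 14 d replicate 2 in place of replicate 1. None of the 3 calls was kept under the last 2 of these, where 0 and 12 probe sets were called. Of the settings that gave a value, rc_AA946227_at was called in 20 of 22, rc_AI177281_at in 16 of 22 and the Tpgs1 probe set in 6 of 26. With both left-out samples kept, the differences were -1.91 ± 0.22, -1.27 ± 0.23 and 0.44 ± 0.52 (adjusted p = 0.0166, 0.269 and 0.808 by limma). In the left-out sham sample at 14 d the Tpgs1 probe set read 1193, above every sample used.

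**Figure D1:**
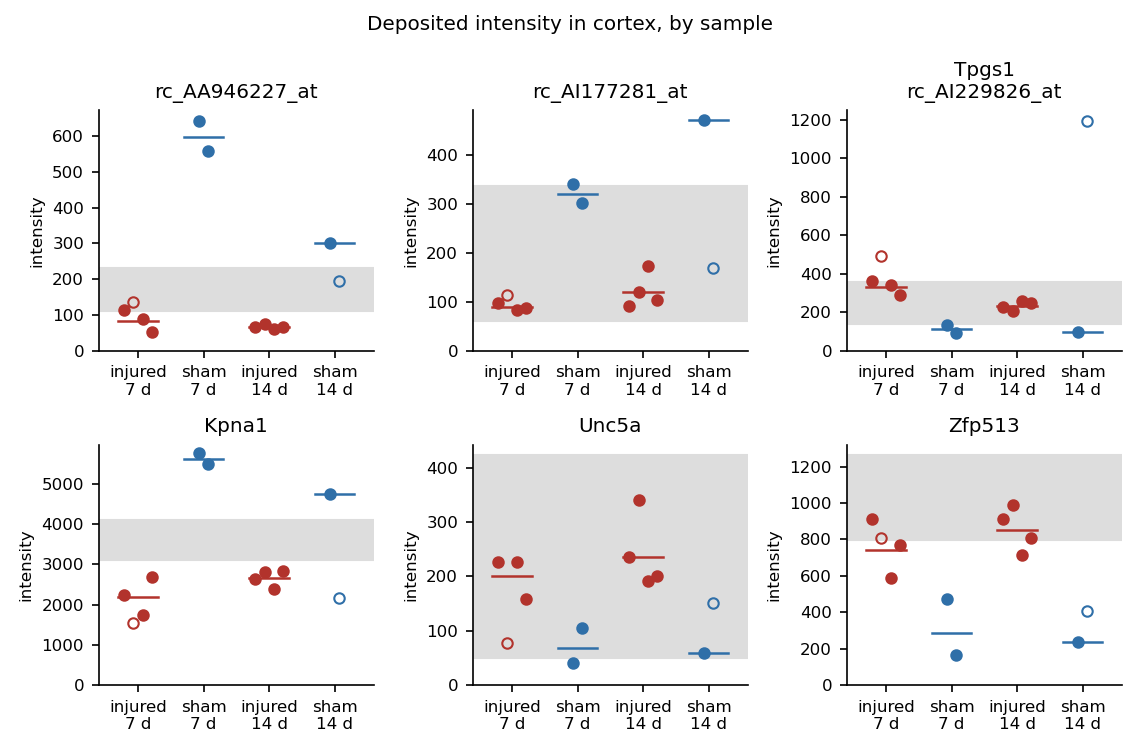
Deposited intensity (vertical axes, linear, from 0) of the 3 called probe sets and of 3 named genes in each cortex sample. Filled points are samples used, open points the 2 samples left out, short lines the group means taken on the log2 scale, and grey bands the range of the 4 naive samples. The injured samples (red) lie below the sham samples (blue) in rc_AA946227_at, rc_AI177281_at and Kpna1 and above them in the Tpgs1 probe set, Unc5a and Zfp513, while the left-out sham sample at 14 d often lies away from the sham sample used.

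No gene was called when each gene was represented by its brightest probe set. The 5 genes with the smallest p in each direction are described by their values. Kpna1, an importin alpha that carries cargo into the nucleus, came nearest to the threshold. It read 2237, 1734 and 2692 in the injured samples at 7 d, 2643, 2802, 2392 and 2846 in those at 14 d, 5770.2 and 5492 in the sham samples at 7 d and 4763 in the sham sample at 14 d. Every sham sample lay above the naive range of 3102 to 4095 and every injured sample below it, and the difference was -1.14 ± 0.17 (adjusted p = 0.0917 by limma).

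Mios, a subunit of the GATOR2 complex that signals amino acid supply to mTORC1, differed by -1.01 ± 0.23 and its groups overlapped, with 68.9 to 241 in the injured samples and 225 to 314 in the sham samples. Ube2z and Lrsam1, a ubiquitin-conjugating enzyme and a ubiquitin ligase, differed by -0.57 ± 0.13 and -0.69 ± 0.17 (adjusted p = 0.548 and 0.548 by limma). Atf3, a stress-induced transcription factor that is known as a marker of axotomised sensory neurons, read 248, 242 and 190.2 in the injured samples at 7 d, 163, 196, 167 and 195 in those at 14 d, 384 and 463 in the sham samples at 7 d and 265 in the sham sample at 14 d. The Atf3 values of injured samples all lay below those of sham samples, by -0.69 ± 0.17 (adjusted p = 0.548 by limma), and the naive samples spanned 167 to 356.

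Among the genes higher in injured cortex, Unc5a, a receptor for the axon guidance cue netrin, read 226, 226 and 158 in the injured samples at 7 d, 236, 340.4, 191 and 199.8 in those at 14 d, 39.9 and 106 in the sham samples at 7 d and 58.9 in the sham sample at 14 d. The groups did not overlap, and the difference was 1.36 ± 0.25 (adjusted p = 0.262 by limma). No sham sample of Unc5a, Cmtm8 or Dnaaf9 exceeded the 40th percentile of its array, so these 3 genes also entered the test through injured samples alone. Zfp513 exceeded it in 2 sham samples, and Podxl, Gad2, Gabrb1, Igf2r and Fkbp5, given below, in 1 each. The filter asks for 3 arrays, so these genes could not have passed without injured samples. For Unc5a naive cortex spanned 49.0 to 423 and so covered both groups except for the lower sham sample at 7 d. Zfp513, a zinc finger protein, ranged over 585 to 989 in the injured samples and 166 to 472 in the sham samples, a difference of 1.47 ± 0.27 (adjusted p = 0.297 by limma). The 3 sham samples lay below the naive range of 796 to 1265, and the sham minus naive difference of Zfp513 was called (-1.83 ± 0.34, adjusted p = 0.0182 by limma), while injured minus naive was -0.32 ± 0.27.

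Podxl, the sialomucin podocalyxin of vessels and neurons, differed by 1.25 ± 0.24. Cmtm8, a membrane protein of the MARVEL family, differed by 1.45 ± 0.31, and Dnaaf9, named as an assembly factor of axonemal dynein, by 0.96 ± 0.20. In these 3 genes all 7 injured samples lay above the sham mean of their time, and the adjusted p by limma was 0.307, 0.49 and 0.454. Dnaaf9 was lower in sham than in naive cortex (-1.503 ± 0.27, adjusted p = 0.0165 by limma), and its injured samples also lay below the naive range of 288 to 342.

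Aif1, which encodes the calcium-binding protein Iba1 of microglia and macrophages, is on the arrays with 3 probe sets. The brightest, U10894_s_at, read 415, 309.6 and 204 in the injured samples at 7 d, 201, 339, 220.1 and 273 in those at 14 d, 5.75 and 22.9 in the sham samples at 7 d and 219 in the sham sample at 14 d. The 2 sham samples at 7 d stood apart from all others, while the sham sample at 14 d lay among the injured ones. On the type A arrays of the 2 sham samples at 7 d the 5th percentile was 10.6 and 16.3 and the 40th percentile 150 and 182. Both of their readings thus lay at the low end of the signal and under the filter level. Over both times the difference was 1.79 ± 0.46 (adjusted p = 0.556 by limma, 6 of 7 injured samples above the sham mean of their time). At 7 d alone it was called, at 2.86 ± 0.33 (adjusted p = 0.0218 by limma), and at 14 d it was 0.19 ± 0.40 (adjusted p = 0.998 by limma). Leaving out 1 of 5 of the 10 samples ended the call at 7 d, among them sham 7 d replicate 1 (adjusted p = 0.0744 by limma).

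The naive samples read 273 to 358 at this Aif1 probe set, close to the injured samples. Sham cortex of the 2 times differed from naive by -1.70 ± 0.23 (adjusted p = 3.1e-04 by limma), and injured cortex differed from naive by -0.18 ± 0.18 (adjusted p = 0.661 by limma). The 2 comparisons with naive share the naive samples, and the sham ones are shared with the injury comparison. The second probe set, U17919_s_at, read 133 and 157 in the sham samples at 7 d and 181, 218 and 235 in the injured samples at 7 d, with 113 to 239 in naive cortex. Its difference was 0.34 ± 0.17 over both times and 0.46 ± 0.22 at 7 d (adjusted p = 0.544 by limma). It too entered the test through injured samples alone. The third, U33471_at, was too dim to test and read 98.3 to 167 in the injured samples and 127 to 144 in the sham samples. Of the 31 tested members of the microglia and macrophage list, Aif1 was the 1 gene called at 7 d, where 8 of all 8631 genes tested were. The list median at 7 d was -0.04, with 15 members above 0.

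**Figure D2:**
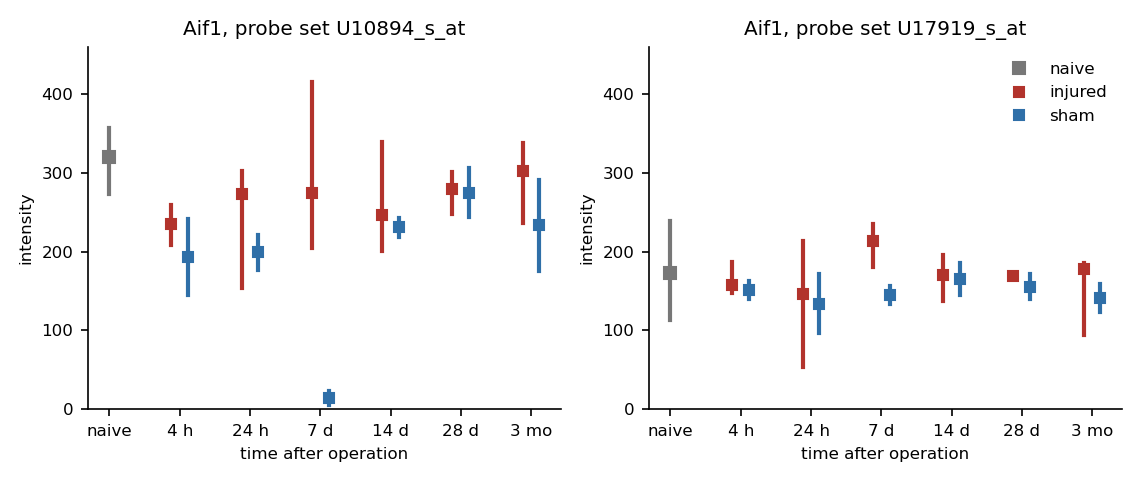
Intensity of 2 probe sets of Aif1 (vertical axes, linear) in naive, injured and sham cortex over the times of the study, with all samples of each group. Squares are medians and lines run from the lowest to the highest sample. At U10894_s_at the sham samples at 7 d read 5.75 and 22.9 and every other group lies at 145 or above, while at U17919_s_at the sham samples at 7 d read 133 and 157, near the other groups.

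At 7 d, with 3 injured and 2 sham samples, 15 probe sets were called (0.0877 percent), 10 higher and 5 lower, of which 2 are the unnamed probe sets and 1 the Tpgs1 probe set above. In 14 of the 15, both sham samples lay outside the range of the 4 naive samples on the same side. Among all probe sets tested this was so for 3983 (23.3 percent). The calls were chosen on these sham values, so the share is a description. Of the higher calls, only Castor1 had all 3 sham samples of the 2 times above the 40th percentile of their array. The others had at most 1, which at Aif1 and Hoxd9 was the sham sample at 14 d. They passed the filter through injured samples, so that a difference was built into their entry as well. In 3 of the 15 all injured samples at 7 d lay inside the naive range.

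Castor1, the cytosolic arginine sensor of the mTORC1 pathway, is such a case. It read 326 and 369 in sham cortex at 7 d, 1007, 1027 and 1096 in injured cortex at 7 d, 1028 in sham cortex at 14 d and 647 to 1258 in naive cortex. Its difference at 7 d was 1.504 ± 0.18 (adjusted p = 0.0237 by limma). Ddx10, an RNA helicase of the DEAD-box family, differed by 1.57 ± 0.19, with 136 and 97.3 in sham at 7 d and 255 to 636 in naive cortex. Hoxd9, a homeobox gene of the posterior body axis, differed by 2.27 ± 0.22, with 41.7 and 33.8 in sham at 7 d and 285 in sham at 14 d.

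Exoc8, a subunit of the exocyst that tethers secretory vesicles, went the other way, by -2.26 ± 0.26 (adjusted p = 0.0218 by limma). It read 44.2, 58.1 and 54.6 in the injured and 300.5 and 454 in the sham samples at 7 d, and 129 to 271 in naive cortex. Over both times, 1 injured sample and 2 sham samples exceeded the filter level at Exoc8, the sham ones being those at 7 d. Exoc8 could not have passed the filter without these sham samples, so that a difference was built into its entry too. Other called probe sets, named after their values were seen, belong to Gnal, the G protein alpha subunit of olfactory and striatal signalling, to the matrix protein Fbln2, to Slc35e4 and to Mlst8, a subunit of the mTOR complexes. Their differences at 7 d were 2.27 ± 0.31, 1.65 ± 0.22, 1.66 ± 0.22 and 2.09 ± 0.27, and at 14 d they were -0.51, -0.06, -0.02 and 0.35. The Mlst8 call is that of AF051155_g_at, and the brighter AF051155_at gave 1.18 ± 0.53 at 7 d (adjusted p = 0.491 by limma).

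The smallest p at 7 d belonged to 1 of 4 probe sets of Kctd13, an adaptor of a ubiquitin ligase, also named after its values were seen. At rc_AA859966_i_at the sham samples at 7 d read 3874 and 3231, the injured samples at 7 d 235, 233 and 201, and the sham sample at 14 d 192. The difference at 7 d was -3.81 ± 0.23 (adjusted p = 3.0e-04 by limma). The other probe sets of Kctd13 gave 0.20, -0.06 and 0.19 at 7 d.

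**Figure D3:**
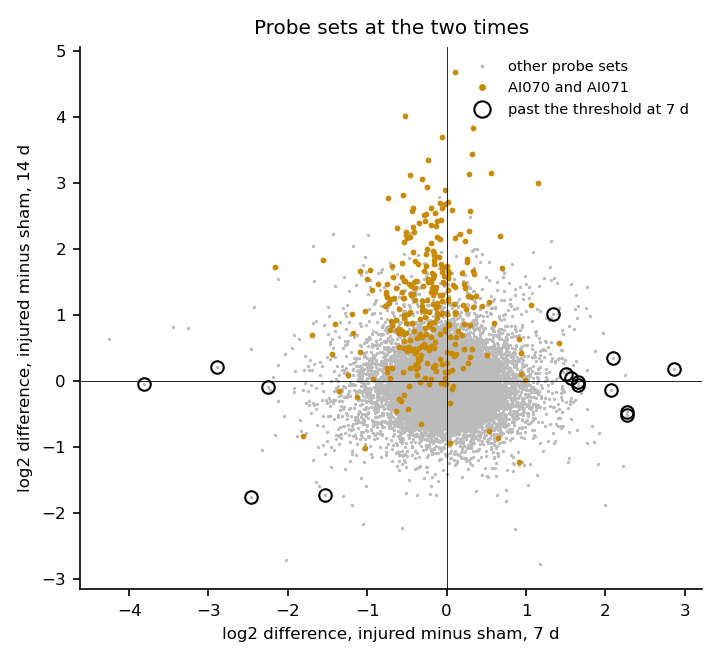
Injured minus sham difference of each tested probe set at 7 d (horizontal axis) and at 14 d (vertical axis), both on the log2(intensity + 32) scale. The 15 probe sets called at 7 d (circles) lie near 0 at 14 d except for the 3 also called over both times, and the 306 tested type C probe sets with identifiers starting AI070 or AI071 (yellow) lie mostly above 0 at 14 d.

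At 14 d the 4 injured samples were set against 1 sham sample, which is assumed to vary like the other groups. There 60 probe sets were called (0.351 percent), 58 higher and 2 lower. Of these, 54 were type C probe sets with identifiers starting AI070 or AI071, which make up 306 of the 17107 tested. On the type C array of the sham sample at 14 d the 664 probe sets of this stretch of the identifier order had a median of -0.72 against the median cortex array (log2), whereas its other probe sets had 0.02. On the other 9 samples the stretch had medians of -0.12 to 0.28. Runs in identifier order also occurred on other arrays. Running medians over 51 neighbouring probe sets fell to -1.02 on the type A array of injured 7 d replicate 4. On type B they fell to -0.83 for injured 14 d replicate 4 and rose to 1.39 for injured 14 d replicate 3. In the sham sample at 14 d the dip ran somewhat beyond the AI070 and AI071 stretch on both sides. That sample read 47.0 at rc_AI069999_at, just before the stretch by identifier, where the other 9 samples read 212 or more. It read 384 at the Rhbdl3 probe set rc_AI072008_at, just after the stretch, where the others read 843 or more. Both are among the calls outside the stretch, and whether the dip reaches them was not tested. The 6 calls outside the stretch, listed after their values were seen, include rc_AA946227_at (-1.76 ± 0.29) and rc_AI177281_at (-1.74 ± 0.26), both called over the 2 times as well. The others were Sparc R47128_f_at (1.495 ± 0.24), Rhbdl3 (1.29 ± 0.20), and rc_AI069999_at (2.24 ± 0.29) and rc_AA817917_at (1.96 ± 0.29), which have no gene here. With the stretch left out these differences stood, but their adjusted p was 0.298 to 0.414 by limma and no probe set was called at 14 d (783 had an unadjusted p under 0.05 with the stretch in), while 15 were called at 7 d.

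**Figure D4:**
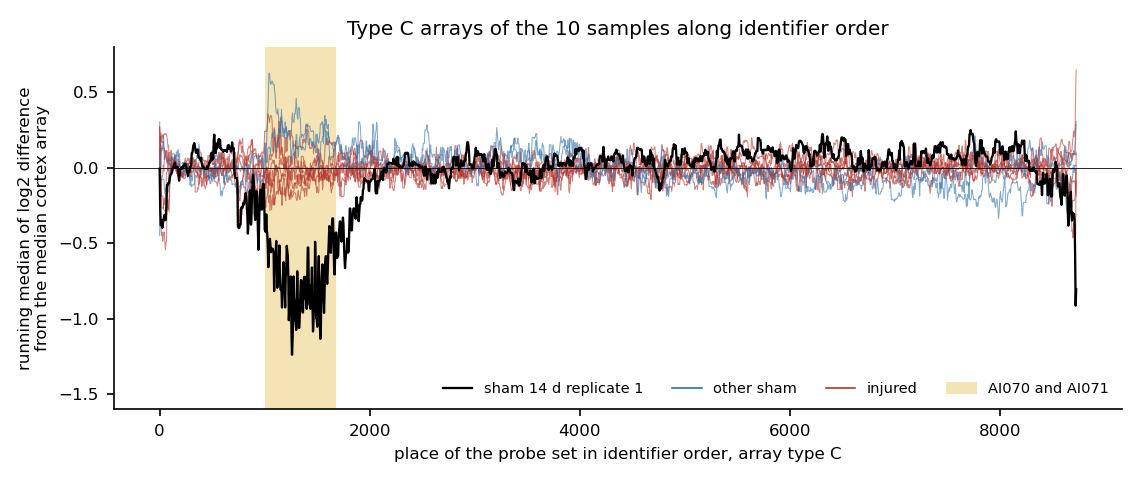
Running median over 51 neighbouring probe sets of the log2 difference from the median cortex array (vertical axis), along the identifier order of array type C (horizontal axis), for the 10 samples. The sham sample at 14 d (black) falls to -1.24 in the shaded stretch of AI070 and AI071, where the injured (red) and other sham samples (blue) have medians of -0.12 to 0.28.

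Nrep, also called P311, a small protein linked to regeneration of axons, had its brightest probe set, rc_AI071578_at, in this stretch. It read 7346, 5854 and 6391 in the injured samples at 7 d, 5937, 7370.4, 5567 and 6209.9 in those at 14 d, 7589.6 and 6218 in the sham samples at 7 d and 1382 in the sham sample at 14 d, and only the sham sample at 14 d stood apart. The left-out sham sample at 14 d read 271, lower still. On the type C array of that left-out sample the stretch had a median of 0.29. The difference was 0.81 ± 0.37 over both times (adjusted p = 0.732 by limma), -0.08 ± 0.18 at 7 d and 2.15 ± 0.22 at 14 d, where it was called (adjusted p = 0.00447 by limma). A Nrep probe set outside the stretch, rc_AI105417_at, read 218 in the same sham sample and 431, 472, 246 and 407 in the injured samples at 14 d. Its difference was 0.72 ± 0.32 at 14 d (adjusted p = 0.998 by limma) and -0.21 ± 0.30 over both times.

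The other genes named by the rule at 14 d lie in the stretch as well. They are Lmo7, a LIM domain protein (2.70 ± 0.23), Man1b1, a mannosidase of the endoplasmic reticulum (2.18 ± 0.24), Hps4, a part of the complex that forms lysosome-related organelles (2.11 ± 0.24), and Tada2b, an adaptor of the SAGA complex (1.63 ± 0.20). The sham sample at 14 d read 71.2 for Lmo7 and the left-out one 96.1, where the other 9 samples read 592 or more. Some genes of called stretch probe sets have probe sets elsewhere. Ehd3, an endocytic recycling protein, gave 4.69 ± 0.25 in the stretch and 0.20 ± 0.33 outside it. Dlgap1, a scaffold of the postsynaptic density, gave 3.11 ± 0.17 in the stretch and -0.94, 0.01 and 0.47 at its other probe sets. Mgll, the monoacylglycerol lipase, gave 2.94 ± 0.25 in the stretch and -0.06 to 0.30 at its 4 other tested probe sets. These 3 genes were picked after their values were seen.

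Gene groups were described with 30 lists. In none of them was a member called over both times, and list medians ran from -0.15 to 0.16, beside -0.0043 over the 8631 genes tested of 10969 on the arrays. At an unadjusted p under 0.05 there were 268 higher and 242 lower genes. The microglia and macrophage list (31 tested members) had a median of 0.01, with 2 members higher and 1 lower at that level. They were Aif1, Ctsb (0.45 ± 0.20), the lysosomal protease cathepsin B, and Fcgr2b (-0.66 ± 0.27), an inhibitory antibody receptor. Ctsb ranged over 4155 to 6716 in the injured samples and 3469 to 4041 in the sham samples, which did not overlap. The summed intensity of the list was 33078 to 41759.6 in injured, 32004 to 35379 in sham and 36060.4 to 40280.3 in naive cortex.

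The other glial lists had medians near 0. The astrocyte list (29 tested) had a median of -0.02 and no member under an unadjusted p of 0.05, with the smallest p at Gjb6, a gap junction protein (0.34 ± 0.18). The myelin and oligodendrocyte list (22 tested) had a median of -0.01. Its members Olig2, a transcription factor of the oligodendrocyte lineage, and Cd9, a tetraspanin, differed by 0.61 ± 0.22 and 0.51 ± 0.21 (adjusted p = 0.719 and 0.725 by limma). In the interferon and antigen presentation list (29 tested, median 0.03) Tap1, a peptide transporter of the class I pathway, read 144 to 567.6 in the injured samples and 591 to 778 in the sham samples, a difference of -0.82 ± 0.35 without overlap (adjusted p = 0.725 by limma).

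The growth and regeneration list (42 tested) had a median of -0.02, with 4 members higher and 2 lower at an unadjusted p under 0.05. Vgf, a neuronal secretory protein induced by activity and neurotrophins, read 3228, 3234 and 3745 in the injured samples at 7 d, 2870.2, 3646, 4242 and 3709 in those at 14 d, 1609.8 and 2167 in the sham samples at 7 d and 2626 in the sham sample at 14 d. Its injured samples all lay above its sham samples, by 0.69 ± 0.19 (adjusted p = 0.602 by limma). Basp1, a growth cone protein, read 9446 to 14927 in the injured samples and 7345 to 8532 in the sham samples, again without overlap, and differed by 0.56 ± 0.17 (adjusted p = 0.684 by limma). Atf3 went the other way, as given above.

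Of the neuronal lists, the GABA neuron and interneuron list (23 tested) had the highest median, 0.16, with 17 members above 0. At 7 d its median was 0.28 (18 above 0) and at 14 d -0.04 (9 above 0). Gad2, an enzyme of GABA synthesis, read 165 to 512 in the injured samples and 90.0 to 177 in the sham samples, a difference of 1.02 ± 0.30 that was 1.496 ± 0.34 at 7 d and 0.31 ± 0.41 at 14 d, while Reln, secreted by some interneurons, differed by -0.34 ± 0.13 (adjusted p = 0.677 and 0.725 by limma). In the cortical projection neuron list (31 tested, median 0.04) Mef2c, a transcription factor of cortical neurons, read 2016, 4094 and 2644 in the injured samples at 7 d, 2628, 2218, 3055 and 1947 in those at 14 d, 1140.3 and 1294 in the sham samples at 7 d and 1841 in the sham sample at 14 d. The groups did not overlap, at 0.87 ± 0.25 (adjusted p = 0.674 by limma). In the receptor list (33 tested, median -0.09) Gabrb1 and Grin1, subunits of GABA and NMDA receptors, differed by 1.09 ± 0.37 and 0.67 ± 0.25, and in the neurotrophic list (46 tested, median -0.02) Igf2r, which clears IGF2, differed by 0.98 ± 0.29 (adjusted p = 0.717, 0.719 and 0.674 by limma).

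Among stress and matrix genes, the immediate early list (32 tested, median -0.05) held 3 members lower at an unadjusted p under 0.05, Atf3, Junb (-0.53 ± 0.18) and Ier3 (-0.30 ± 0.13), and none higher. Its median was 0.14 at 7 d (18 members above 0) and -0.36 at 14 d (4 above 0), beside 0.0014 and -0.03 over all genes. The glucocorticoid-responsive list (23 tested, median 0.15) held 3 higher, Fkbp5 (0.52 ± 0.20), a co-chaperone of the glucocorticoid receptor, Gpd1 (0.41 ± 0.16) and Nfkbia (0.66 ± 0.26). Their adjusted p by limma was 0.717, 0.727, 0.725, 0.725 and 0.725. In the matrix list (46 tested, median 0.02) Timp3, an inhibitor of metalloproteinases, read 1176, 949 and 1355 in the injured samples at 7 d, 1038, 1234, 1127 and 1169 in those at 14 d, 725 and 728 in the sham samples at 7 d and 809 in the sham sample at 14 d. It did not overlap, at 0.57 ± 0.13 (adjusted p = 0.548 by limma), while Ccn1, a matricellular protein, ranged widely, over 22.5 to 471 in the injured samples and 194 to 1120.0 in the sham samples.

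Casp2, a caspase, belongs to the cell death and p53 list, whose 24 tested members had a median of -0.13. Casp2 read 339, 196 and 265 in the injured samples at 7 d, 314, 291, 81.5 and 438 in those at 14 d, 61.7 and 46.7 in the sham samples at 7 d and 71.4 in the sham sample at 14 d. All injured samples lay above all sham samples, by 1.63 ± 0.38 (adjusted p = 0.528 by limma), and Casp2 too entered the test through injured samples alone. Bcl2 and Bid, which act against and for cell death, differed by -0.62 ± 0.26 and -0.77 ± 0.32. In the proteasome list (35 tested, median 0.14, 23 members above 0) Psmd14, the deubiquitinase of the lid, read 587 to 729 in the injured samples and 430.3 to 478 in the sham samples, at 0.53 ± 0.13 (adjusted p = 0.548 by limma). The respiratory chain list (73 tested) had a median of -0.0018 and the cytosolic ribosomal list (57 tested) one of -0.03.

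Markers of other cells and neighbouring tissue were read in the same way. The blood cell list had a median of -0.15 (11 tested), meninges 0.03 (23), choroid plexus 0.02 (10), striatum -0.03 (16), vessels 0.04 (21) and brainstem -0.04 (15). Their summed intensities overlapped between injured and sham cortex in all 6 lists, for blood cells 62277 to 126951 in injured and 82358 to 100884 in sham cortex. The actin 3' over 5' ratio, a sign of RNA integrity, was 1.31 to 2.09 on the injured and 1.201 to 2.25 on the sham arrays. Sham 7 d replicate 1 had the highest actin ratio of the 10 samples on each array type (2.16, 2.25 and 2.15 on A, B and C). Its GAPDH 3' over 5' ratio was also the highest on each (1.44, 1.66 and 1.66). It is 1 of the 2 sham samples behind the comparison at 7 d, and whether its RNA integrity bears on those calls was not tested.

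**Figure D5:**
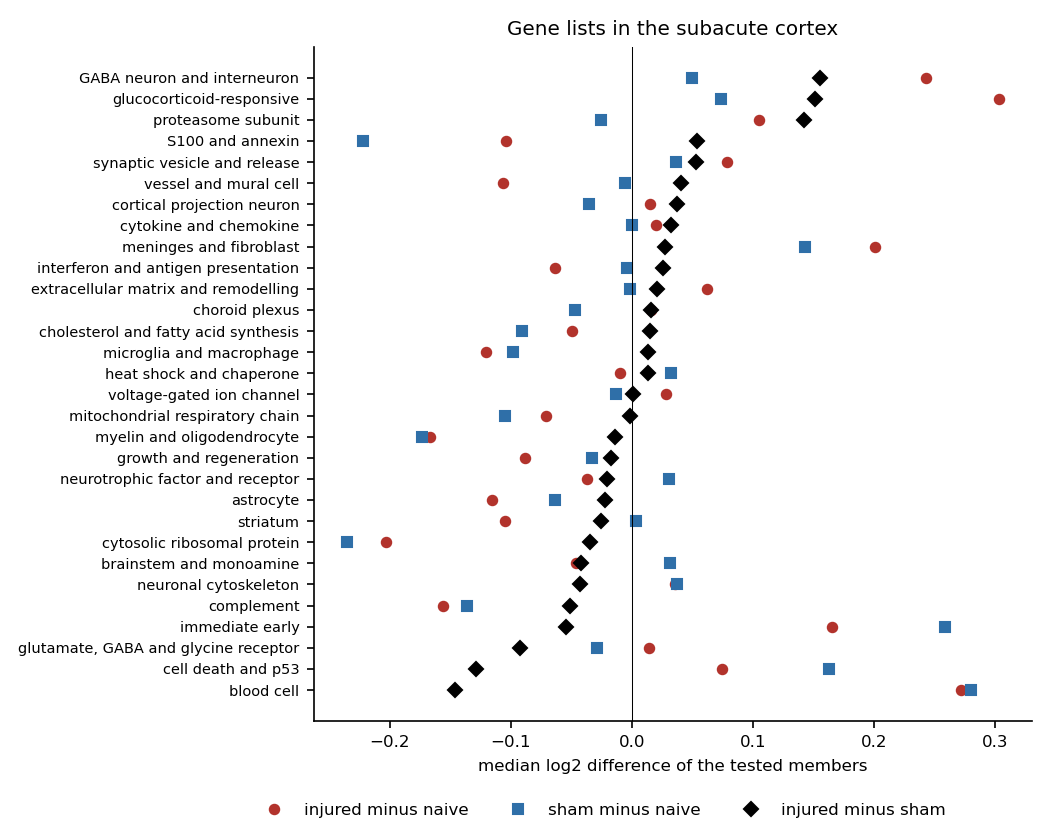
Median log2 difference of the tested members of each of 30 gene lists (horizontal axis) for injured minus sham (black), injured minus naive (red) and sham minus naive cortex (blue) at 7 d and 14 d. The injured minus sham medians lie between -0.15 and 0.16, and the ribosomal protein list lies at -0.20 and -0.24 against naive in injured and sham cortex.

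Against naive cortex the 2 operated groups were read side by side, as they share the naive samples. Injured cortex differed from naive at 333 probe sets (1.77 percent), 156 higher (0.827 percent) and 177 lower (0.939 percent), and sham cortex at 22 (0.117 percent), 5 higher and 17 lower. With both left-out samples kept the order of the counts turned, to 173 for injured and 274 for sham cortex. The numbers of samples differ, with 7 injured and 3 sham, and whether the 2 contrasts differ is the injury comparison above. Wdr26, a subunit of the CTLH ubiquitin ligase, was higher than naive by 0.95 ± 0.15 in injured cortex (adjusted p = 0.00177 by limma) and stood at 0.91 ± 0.19 in sham cortex. Krt4, a keratin, stood at 1.13 ± 0.18 and 0.92 ± 0.23, and Ywhag, a 14-3-3 protein, at 0.76 ± 0.13 and 0.32 ± 0.17.

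Tpgs1, by its brighter probe set, was below naive in both groups, at -0.71 ± 0.11 in injured (adjusted p = 0.00162 by limma) and -0.66 ± 0.13 in sham cortex (adjusted p = 0.0437 by limma). Of 59 cytosolic ribosomal protein genes tested, 5 were called lower than naive in injured cortex and none in sham cortex by limma. Of all 9166 genes tested, 52 and 7 were called lower. At an unadjusted p under 0.05 there were 18 and 16 ribosomal genes lower, where 8.14 and 6.41 percent of all probe sets were. The list medians were -0.20 and -0.24. The called members were Fau, Rpl17, Rpl28, Rpl36 and Rpl36a, with Rpl36 at -0.68 ± 0.12 in injured and -0.49 ± 0.15 in sham cortex. Proteasome subunits were called higher in injured than naive cortex in 3 of 36 genes, Psmd2 (0.38 ± 0.09), Psmd3 (0.52 ± 0.12) and Psmd10 (0.53 ± 0.14), where 81 of all 9166 genes were. None was called in sham cortex. At an unadjusted p under 0.05, 6 subunits were higher and 1 lower in injured cortex, and 8 higher and 3 lower in sham cortex. Of all genes, 776 and 664 were higher at that level. The list medians were 0.11 and -0.03.

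Whether the injury difference of this window departed from other windows was tested on the differences themselves. Against the acute window of 4 h and 24 h, 2 probe sets of 18858 were called (0.0106 percent), both higher. Without the stretch there was 1. Among genes by their brightest probe set, Myo1g, a myosin of blood cells, came nearest, at 1.35 ± 0.27 (adjusted p = 0.0944 by limma), followed by Aif1 (1.26 ± 0.27, adjusted p = 0.121 by limma) and Castor1 (1.00 ± 0.22, adjusted p = 0.125 by limma). Against the chronic window of 28 d and 3 months, 6 were called (0.0318 percent), 4 of them in the stretch, including Lmo7 (1.79 ± 0.31) and Nrep (1.47 ± 0.27). The type C arrays of 3 of 4 injured samples at 28 d were low in the stretch as well, with medians of -0.54, -0.14 and -0.28 in replicates 1, 2 and 3, so that both sides of this difference are touched. The 2 calls outside the stretch, named after their values were seen, were Nkd1, an inhibitor of Wnt signalling (3.09 ± 0.58), and Lims1, an adaptor of integrin adhesions (-1.47 ± 0.28). With the stretch left out both had an adjusted p of 0.112 by limma and none was called.

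Against the raphe of the same times, 8 probe sets of 19896 were called (0.0402 percent), 7 higher and 1 lower, 4 of them in the stretch. Ncbp3, a cap-binding protein of the nucleus, differed by 1.09 ± 0.20 (adjusted p = 0.00814 by limma), with 0.80 in cortex and -0.28 in raphe. In cortex Ncbp3 read 828, 1026 and 1197 in the injured samples at 7 d, 1261, 1010.4, 912 and 1006 in those at 14 d, 464 and 808 in the sham samples at 7 d and 535 in the sham sample at 14 d. Aif1 differed between the regions by 1.22 ± 0.26 (adjusted p = 0.0482 by limma), a call lost with the stretch left out (0.089), where that of Ncbp3 was not (0.0319). The call of Aif1 was also lost under several other settings, given below. The raphe sham samples of Aif1 at 7 d read 161 and 164, and its cortex sham samples at 7 d 5.75 and 22.9.

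For the 3 probe sets called in the cortex window, rc_AA946227_at stood at -0.43 in the acute, -0.20 in the chronic cortex window and -0.59 in raphe. rc_AI177281_at stood at 0.97, -0.10 and -0.79, and the Tpgs1 probe set at 0.23, 0.81 and -0.27. None of their differences between windows or regions was called (lowest adjusted p = 0.121 by limma, for rc_AI177281_at against the acute window). The injury difference at 14 d minus that at 7 d was called at 42 probe sets (0.246 percent), 37 of them in the stretch. Hoxd9, outside it, differed by -2.73 ± 0.36 (adjusted p = 0.022 by limma), with readings of 41.7 and 33.8 in sham cortex at 7 d and 285 at 14 d. With the stretch left out its difference was the same and its adjusted p 0.171 by limma, and only the Kctd13 probe set rc_AA859966_i_at, named after its values were seen, was still called (3.76 ± 0.37, adjusted p = 0.0246 by limma).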

How the data were processed

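Total RNA of rat somatomotor cortex was read on Affymetrix arrays of 3 types, which hold 26202 probe sets together. The deposited intensities, 1 per probe set and array, had been made by the authors from probe signals on a linear scale, and software, version and scaling are not given in the sources used here. A mean trimmed by 2 percent of 800.5 to 801.2 on each of the 30 arrays shows that the deposited intensities had been scaled per array. The number of arrays limits the precision, and with nothing in the labels on separate animals the p-values measure the spread between these samples only.

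Probe sets above the 40th percentile of their array on at least 3 arrays of a fit were kept, and log2(intensity + 32) was fitted per array type with limma 3.58.1 in R 4.3.3 (lmFit and eBayes, two-sided), with Benjamini-Hochberg adjustment over the 3 types and a threshold of 0.05. The main fit had time and treatment. Single times and their difference used means of the 4 groups, with sham cortex at 14 d resting on 1 sample. Comparisons with other windows and with naive cortex used all cortex groups with 1 shared spread, and that with raphe both regions. Those fits also left out 1 cortex sham sample at 3 months, and the fit with raphe left out 2 raphe samples.

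Genes were named from the platform annotation (18178 probe sets with 1 symbol, 391 with several and 7633 with none), and the brightest probe set stood for its gene. Named were the smallest p up to 5 in each direction where fewer passed, Aif1 and Nrep, up to 3 members of each list with the smallest p, and in other comparisons the 5 called genes with the smallest p, or 3 where none was called. The samples, lists and names were chosen with earlier results of these data known. Same-numbered samples of different groups did not deviate together (correlations of -0.05 to 0.12, against -0.16 to 0.15 for other numbers), so replicate numbers were not used as pairs. Other left-out samples, scalings, filters, pseudocounts and models were tried, and the fits were tested on simulated data. Sequences of the probe sets were not used here.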

Additional observations from a re-analysis of the deposited data

Results flagged for a closer look

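Several differences between times, windows or regions passed a test of the difference itself. The injury difference at 14 d exceeded that at 7 d by 2.69 ± 0.29 for Lmo7, 2.64 ± 0.31 for Hps4, 2.14 ± 0.27 for Rbm15, an RNA-binding protein of the m6A writer complex, and 2.23 ± 0.29 for Nrep (adjusted p = 0.0141, 0.0172, 0.0201 and 0.022 by limma). These 4 probe sets lie in the AI070 and AI071 stretch that read low on the type C array of the only sham sample at 14 d. Where 42 probe sets were called for this difference, 1 was with the stretch left out, 4 with the correction for place in identifier order and 1078 with sham 14 d replicate 2 in place of replicate 1. For Hoxd9, outside the stretch, the same difference was -2.73 ± 0.36 (adjusted p = 0.022 by limma). Its call was lost with the stretch left out of the adjustment, with the correction for place, without a filter and with the higher pseudocount. It was also lost with the replicate block, the spread shared over all cortex groups and the 5th percentile as a covariate. Keeping the raised injured 7 d sample ended it as well. So did leaving out sham 7 d replicate 1 or 2, injured 7 d replicate 3 or injured 14 d replicate 4.

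The difference of the 7 d and 14 d window exceeded that of the chronic window by 1.79 ± 0.31 for Lmo7 and 1.47 ± 0.27 for Nrep (adjusted p = 0.0232 and 0.0382 by limma), again within the stretch. On the chronic side the type C arrays of injured 28 d replicates 1 and 3 were low there too, with stretch medians of -0.54 and -0.28. It exceeded that of raphe by 1.09 ± 0.20 for Ncbp3 and 1.22 ± 0.26 for Aif1 (adjusted p = 0.00814 and 0.0482 by limma). For Ncbp3 all 7 injured cortex samples lay above the sham samples, and for Aif1 the low readings were those of the 2 sham cortex samples at 7 d. With the stretch left out of the adjustment the call of Aif1 was lost (adjusted p = 0.089 by limma) and that of Ncbp3 was not (0.0319), whereas Ncbp3 lost its call with both raised samples kept (0.139). The call of Aif1 was also lost with quantile normalization, without a filter, with adjustment within each array type and with the correction for place. It was lost with the higher pseudocount too, where its difference from raphe was 0.65. No sample stood apart by Dixon's criterion in the 30 groups of 4 samples to which it was applied, of which chance would pick about 1 in 20. Sham cortex at 7 d and 14 d, with 2 and 1 samples used, was not among these groups. The criterion therefore says nothing on the sham samples behind the differences above.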

How the results depend on the processing

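Every count here is of probe sets called by limma, and 3 of the alternatives (correction for place in identifier order, leaving out AI070 and AI071, and sham 14 d replicate 2 in place of replicate 1) were chosen after seeing the data. Over both times, where 3 were called, the count was 0 with the 60th percentile filter, 5 with the correction for place, 12 with replicate 2 in place of replicate 1, 8 without the time block and 1 with the 5th percentile as a covariate. Leaving out 1 sample gave 0 to 12, with 12 without sham 14 d replicate 1, 1 without sham 7 d replicate 2 and 0 without sham 7 d replicate 1 or injured 7 d replicate 3. At 7 d (15 called) it was 70 with the spread shared over all cortex groups and 4 with the covariate, and 2 to 34 when a sample was left out (2 without injured 7 d replicate 1, 34 without sham 7 d replicate 2). At 14 d (60 called) it was 39 with both raised samples kept, 35 with the sham one kept, 37 without a filter, 92 with adjustment within each type, 11 with the correction for place, 0 without AI070 and AI071, 2471 with replicate 2 in place of replicate 1, 28 with the shared spread and 26 with the covariate, and 38 to 74 when a sample was left out. For 14 d minus 7 d (42 called) it was 25 with quantile normalization, 8 without a filter, 16 with the higher pseudocount, 75 with adjustment within each type, 4 with the correction for place, 1 without AI070 and AI071, 1078 with replicate 2 in place of replicate 1, 27 with the raised sham sample kept, 26 with the shared spread and 16 with the covariate, and 9 to 41 when a sample was left out. Neither could be fitted without sham 14 d replicate 1. With the replicate number as a block, which the correlations do not bear out as a pairing, 0, 1, 3 and 0 were called over both times, at 7 d, at 14 d and for their difference. Against the acute window (2 called) it was 9 and 1 with the lower and higher pseudocounts and 1 without AI070 and AI071. Against the chronic window (6) it was 16 with both raised samples kept, 10 with the 60th percentile filter, 14 with the lower pseudocount, 11 with adjustment within each type and 0 without AI070 and AI071. Against raphe (8) it was 32 with both raised samples kept, 16 and 3 with the lower and higher pseudocounts, 3 with the correction for place and 1 without AI070 and AI071. For sham minus naive (22) it was 274 with both raised samples kept, 48 with the 60th percentile filter, 42 and 35 with the lower and higher pseudocounts, 46 with adjustment within each type and 11 without AI070 and AI071, and for injured minus naive (333) it was 173 with both raised samples kept. Signs of the difference over both times turned for 10 named results, with replicate 2 in place of replicate 1 for Dnajb6 (0.22), Col4a1 (-0.068), Pecam1 (0.14), Hba-a1 (0.19), Mgp (-0.017) and the dim Tpgs1 probe set (-0.081), with the raised sham sample kept for Dnajb6 (0.00057) and Hba-a1 (0.090), with both kept for Hba-a1 (0.15), with the raised injured sample kept for the bright Tpgs1 probe set (0.026), and with the replicate block for Nrep at rc_AI105417_at (0.0096). With 1 sample left out Nrep ran from -0.079 (without sham 14 d replicate 1) to 1.14 at rc_AI071578_at, from -0.018 (without the same sample) to 1.47 at rc_AI071578_g_at and from -0.83 to 0.075 (without sham 7 d replicate 2) at rc_AI105417_at. Without injured 7 d replicate 3 the 3 calls over both times were lost (adjusted p = 0.0573 for rc_AA946227_at, 0.0613 for rc_AI177281_at and 0.116 for Tpgs1). The call of Aif1 at 7 d was lost with the covariate (adjusted p = 0.0813), with the replicate block (0.181), and without sham 7 d replicate 1 (0.0744), injured 7 d replicate 1 (0.0907) or 3 (0.0534), or injured 14 d replicate 3 (0.0512) or 4 (0.0644). The causes were not tested.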

Other observations

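Sparc, a matricellular protein of vessels and astrocytes, was picked after its values were seen, and its 7 tested probe sets had differences of both signs. The brightest, rc_AA892248_at, differed by -0.83 ± 0.58 between injured and sham cortex over both times (adjusted p = 0.812 by limma). The other 6 differed by 0.46 to 1.03, each higher in injured cortex on average, with adjusted p of 0.424 or more by limma. At 14 d, where sham cortex is 1 sample, R47128_f_at was called (1.495 ± 0.24, adjusted p = 0.042 by limma).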
